A study of Mus musculus with 6 samples.

Results

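Klf6, Klf7, Klf8, Klf9, Klf10, Klf12 and Klf13 are Kruppel-like factors, here treated as a group that leaves out Klf2 and Klf3. The group is not the whole remaining family. Klf4, Klf11 and Klf16 also have values and are described below as relatives. The members were chosen by name, without a threshold on any value but with earlier results of these data known. Of the 7, 6 have values among the 12942 genes of the table. The transcript level of Klf12 was not analysed here. RNA sequencing gave their transcript levels in iNKT1 cells of the liver, the interferon-gamma-producing type of natural killer T cell, which were sorted as CD1d tetramer-positive and YFP-positive. Control mice carried Tbx21Cre and Rosa26-YFP, and the mice of the cKOHet group carried the same alleles together with Ets1F/F and Tbx21F/+, so that all cells studied had carried the Cre. There were 3 libraries per group, described as independent replicates and numbered 1, 2 and 4. The titles of control replicate 4 and cKOHet replicate 1 name iNKT cells, and the other titles iNKT1 cells. The column codes of replicate 1 in both groups join a pair of names, without saying whether samples were pooled, and no age of the mice is given in the sources used here. Because Cre was driven by Tbx21 and the sort took YFP-positive cells, only cells with past Tbx21Cre activity were sampled. The loss of both floxed Ets1 alleles and of 1 floxed Tbx21 allele cannot be told apart in this comparison.

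Kruppel-like factors are transcription factors that bind GC-rich and CACCC-type DNA through zinc fingers at their carboxyl end, and the rest of each protein decides whether a target is activated or repressed. Klf6 and Klf7 are mostly activators. Klf8 and Klf12, like Klf3, recruit the corepressor CtBP, while Klf9, Klf10 and Klf13 recruit the Sin3 and histone deacetylase complex. In T cells Klf2 is the best studied member, as a keeper of quiescence and an activator of the exit receptor gene S1pr1. Klf10 is known as a TGF-beta-inducible early gene, Klf9 as a gene induced by glucocorticoids and thyroid hormone, and Klf13 as an activator of the chemokine gene Ccl5.

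The normalised read counts of the libraries summed to between 4996523 and 5219483. Ets1 averaged 7144 ± 795 in controls and 499.8 ± 83.8 in cKOHet libraries (SD, n = 3), a log2 fold change of -3.84 (SE 0.14, adjusted p = 1.06e-10), and Tbx21 averaged 2568 ± 174 and 2206 ± 98.5 (log2 -0.22, adjusted p = 0.196). Replicate 4 of each group stood apart in sex-linked RNA, with Xist at 1.17 and 0.08 against 4337 to 5657 in the other libraries and Ddx3y at 519 and 604 against 0.00 to 1.16. All 10 iNKT1 markers had values, and 1 was called higher and 4 lower. Zbtb16, the defining factor of the lineage, was higher (log2 0.53, adjusted p = 0.0267), and Il2rb, Cxcr3, Trbc1 and Trbc2 were lower. Their summed level was 45416 to 51586 in controls and 35901 to 39082 in cKOHet libraries, of which Il2rb made up 20260.5 ± 338 and 12375 ± 1882 on average. Of 10 macrophage and myeloid markers 7 had values, with summed levels of 39.6 to 87.3 in controls and 160.1 to 296.7 in cKOHet libraries. Of these, Csf1r, Clec4f and Itgam were called higher, Lyz2 was at 10.7 to 42.3 over all libraries, and Adgre1 was at 2.72, 0.04 and 0.04 in controls against 16.1, 1.79 and 7.25. Of 7 NK and innate lymphoid markers 6 had values, with sums of 145.8 to 153.6 and 201.8 to 311.1, and Eomes, Klra8 and Tyrobp were called higher. Of these, Klra8 (2.63, 2.21 and 4.33 in controls) passed the filter on low values only through the cKOHet libraries and so had to differ. Tyrobp in cKOHet replicate 4 (34.4) lay within the control range of 22.9 to 38.1. Klra4 and Itga2 were not called (log2 1.08 and -0.03). Ncr1 did not pass the filter and lay wholly lower in cKOHet libraries, at 8.45 to 9.47 in controls and 5.52 to 7.05. Hepatocyte marker sums overlapped, at 219.8 to 406.7 and 254.6 to 630.1, the red cell gene Hba-a1 was at 0.00 to 0.06 and 7.40 to 33.2, and the endothelial and lymphocyte adhesion gene Pecam1 fell from 196 ± 23.9 to 43.5 ± 7.48 (log2 -2.16, adjusted p = 8.44e-06). Of 7 B cell markers 2 had values, and Cd74 was called higher (59.7 ± 9.20 to 119.6 ± 30.95) and Ighm lower (1954 ± 94.9 to 943 ± 155, adjusted p = 0.016 and 2.72e-05). The 7 stromal markers were not analysed here.

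The 300-base windows around RefSeq transcription starts (GRCm38.p6, the build of the mm10 coordinates) were searched for longer forms of the Ets core GGAA. The deleted factor's family binds this core. The reference gave 7 windows for 6 members, Klf12 among them. Klf8 has 2 starts and Klf10 has no entry. The searched forms were CCGGAA and GGAAGT on both strands. GGAA with other neighbouring letters was not counted, although it occurs in other member windows, such as that of the second Klf8 start. Of all 32851 windows, 32.1% held at least 1 of the searched forms. Among the members 2 of 7 windows (28.6%) did, those of Klf6 and of the first Klf8 start, which are printed 5′ to 3′ on the gene's strand with the matches in capitals, beside the second Klf8 start, because Klf8 was the member that was nearly silent in controls.
Klf6, chr13:5861239-5861538, plus strand: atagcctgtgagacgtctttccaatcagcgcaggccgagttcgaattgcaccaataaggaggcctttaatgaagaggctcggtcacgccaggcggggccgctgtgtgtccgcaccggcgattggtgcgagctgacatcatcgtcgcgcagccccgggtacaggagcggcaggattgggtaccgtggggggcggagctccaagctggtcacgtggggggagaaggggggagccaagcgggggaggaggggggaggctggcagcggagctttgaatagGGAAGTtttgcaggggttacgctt
Klf8 first start, chrX:153237498-153237797, plus strand: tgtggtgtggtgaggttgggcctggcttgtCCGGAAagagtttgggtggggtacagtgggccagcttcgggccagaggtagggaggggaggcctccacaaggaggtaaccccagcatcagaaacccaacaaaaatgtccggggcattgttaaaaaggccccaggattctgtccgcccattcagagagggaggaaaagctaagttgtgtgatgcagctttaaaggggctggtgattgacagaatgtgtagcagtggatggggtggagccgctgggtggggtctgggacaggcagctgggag
Klf8 second start, chrX:153359363-153359662, plus strand: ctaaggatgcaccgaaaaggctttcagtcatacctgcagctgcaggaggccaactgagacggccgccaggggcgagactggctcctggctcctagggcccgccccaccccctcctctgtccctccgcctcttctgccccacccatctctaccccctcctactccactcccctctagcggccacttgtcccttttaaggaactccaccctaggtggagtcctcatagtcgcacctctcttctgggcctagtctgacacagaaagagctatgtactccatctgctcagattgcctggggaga
In Klf6 the match began at position 27 counted from the start, inside the transcript. In Klf8 it began at position -220. A Kruppel-like factor box, searched as CCNCNCCC on both strands, was present in 6 of 7 member windows (85.7%), with 49.5% of all windows as background. The window without it was that of Klf9. The GC box GGGCGG, which can overlap the former, was present in 5 of 7 (71.4%, against 35.7% of all windows). A letter match describes the sequence and not binding.

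Of the 6 members with values, 5 were called higher in cKOHet libraries and 0 lower, that is at an adjusted p under 0.05 in limma over all 11226 genes tested. At an unadjusted limma p under 0.05, 6 were higher, with Klf13 at 0.0392, and 0 lower. The member not called was Klf13. In the same test 21.4% of all genes were called, 11.5% higher and 9.97% lower. The groups did not overlap at the same 5 members, and all 5 lay wholly higher. Over all genes tested 35.8% did not overlap, 19.1% being wholly higher and 16.7% wholly lower. Klf8 passed the filter on low values only through the cKOHet libraries and so had to differ. Without it, 4 of 5 members were called higher, with a median log2 fold change of 1.63, against a median of 0.007 over all genes tested. Since the members were chosen with earlier results of these data known, their direction and share of calls are no independent evidence. Members ranged from a log2 fold change of 0.31 for Klf13 to 5.10 for Klf8. In sorted cells as a bulk sample, a change in the share of cells that express a gene and a change in RNA per cell cannot be told apart.

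**Figure D1:**
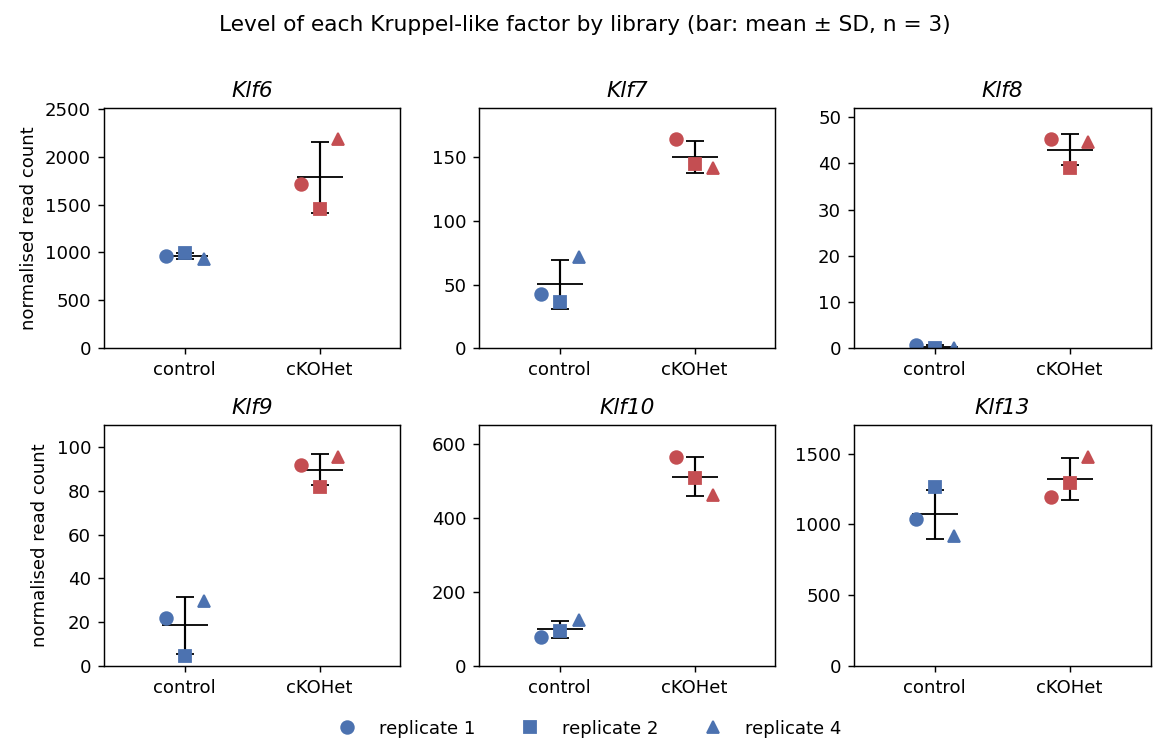
Normalised read count (linear axis from 0) of each member in every library, with points for libraries by replicate number and black bars for mean ± SD, n = 3. The cKOHet libraries lie above the controls for Klf6, Klf7, Klf8, Klf9 and Klf10, while Klf13 overlaps.

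The activator-type members Klf6 and Klf7 both rose. Klf6 (ENSMUSG00000000078, chr13:5861482-5870394, plus strand), a broadly expressed activator known for its induction in injured tissue, had normalised read counts of 960.0, 996 and 931 in the controls, against 1713, 1452 and 2183 in the cKOHet libraries. All cKOHet libraries were above all controls, the controls were close together, and the cKOHet libraries were spread, with replicate 4 highest. The group means were 962 ± 32.3 and 1783 ± 370.4, a log2 fold change of 0.87 (SE 0.14, 95% interval 0.57 to 1.17, adjusted p = 0.000308), or 1.83-fold. Only 6.39% of tested genes had a higher mean normalised read count over the 6 libraries.

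Klf7 (ENSMUSG00000025959, chr1:64029447-64122282, minus strand), the closest relative of Klf6 and best known from the nervous system, measured 42.3, 36.0 and 71.9 in the controls, against 164, 145 and 141 in cKOHet libraries. Control replicate 4 was the highest control and still lay well below each cKOHet library. The means were 50.1 ± 19.2 and 150.1 ± 12.3. The fitted log2 fold change was 1.63 (SE 0.28, 95% interval 1.03 to 2.22, adjusted p = 0.000512), or 3.08-fold on the log scale. Exons of Klf7 share 3196 bases with the opposite-strand long noncoding RNA gene Gm26649, and the strand setting of the counting is not given in the sources used here, so reads of the pair cannot be told apart there.

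Klf8, the CtBP-recruiting member with values, went from near silence to a low but steady level. It is an X-linked repressor gene (ENSMUSG00000041649, chrX:153237466-153396132, plus strand). It measured 0.79, 0.08 and 0.08 in the controls, against 45.3, 39.1 and 44.6 in cKOHet libraries. The cKOHet libraries lay close together (43.0 ± 3.39), also in replicate 4, which had no Xist. The fitted log2 fold change was 5.10 (SE 0.58, adjusted p = 1.21e-05). Its size depends on the pseudocount, since it was 5.84 with a pseudocount of 0.5 and 3.17 with 5, and it is given as a fit and not as a fold. Its level was low in both groups, and 89.0% of tested genes had a higher mean.

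The Sin3-recruiting members Klf9 and Klf10 rose, and Klf13 was not called. Klf10 (ENSMUSG00000037465, chr15:38291463-38300706, minus strand), the TGF-beta-inducible repressor, measured 79.2, 95.1 and 124 in the controls, against 566, 507 and 463 in cKOHet libraries. The lowest cKOHet library was thus far above the highest control. Means were 99.4 ± 22.6 and 512 ± 51.7, a log2 fold change of 2.37 (SE 0.19, 95% interval 1.98 to 2.77, adjusted p = 2.84e-07), or 5.18-fold. By adjusted p Klf10 ranked 87 of 11226 genes, ahead of Klf6 at 620, Klf7 at 712 and Klf9 at 1004.

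Klf9 (ENSMUSG00000033863, chr19:23141226-23168134, plus strand), the hormone-induced member, measured 22.0, 4.33 and 29.7 in the controls, against 91.6, 81.7 and 95.6 in cKOHet libraries. The controls were uneven, with replicate 2 lowest, and the cKOHet libraries were even. Means were 18.7 ± 13.0 and 89.7 ± 7.18. The fitted log2 fold change was 2.54 (SE 0.52, 95% interval 1.44 to 3.64, adjusted p = 0.00219), or 5.81-fold on the log scale, which is not the ratio of these means. Leaving out control replicate 2 brought the log2 fold change to 1.77, and Klf9 was still called (adjusted p = 0.00138, with the genes tested held fixed).

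Klf13 (ENSMUSG00000052040, chr7:63886351-63938915, minus strand), the activator of Ccl5, measured 1036, 1262 and 919.7 in the controls, against 1191, 1293 and 1479 in cKOHet libraries. Control replicate 2 lay within the range of the cKOHet libraries, so the groups overlapped. Means were 1072 ± 174 and 1321 ± 146, a log2 fold change of 0.31 (SE 0.14, 95% interval 0.02 to 0.60, adjusted p = 0.131). The interval is not adjusted for the number of genes. Like Klf6, Klf13 was abundant in both groups, with 7.55% of tested genes at a higher mean.

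In the 4 libraries with high Xist alone, the log2 fold changes were 0.69 for Klf6, 1.95 for Klf7, 4.95 for Klf8, 2.98 for Klf9 and 2.61 for Klf10 (limma adjusted p = 0.0049, 0.00151, 0.00105, 0.0111 and 2.19e-05), so the calls of Klf6, Klf7, Klf9 and Klf10 held there. Klf8 is given as a value, since it had to differ to pass the filter. Klf13 was at 0.12 (adjusted p = 0.635). The low-Xist libraries are 1 in each group and give values without a test. Leaving out each library in turn on the same genes kept the calls of Klf6, Klf7, Klf9 and Klf10, with log2 fold changes of 0.713 to 1.007, 1.42 to 1.91, 1.77 to 3.03 and 2.22 to 2.54. Klf8 ranged from 4.98 to 5.34, and filtering again without a cKOHet library removed it and left 4 members called. Klf13 ranged from 0.20 to 0.43 and was never called (adjusted p 0.0524 to 0.405). The myeloid and NK marker sums given above were also higher in the cKOHet libraries, although the NK markers Ncr1 and Itga2 did not rise. The part of such cells in these results was not tested. No exact permutation test of 3 against 3 libraries can fall below 0.1.

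The rest of the family did not move one way. Klf2 rose from 45.8 ± 15.1 to 169 ± 41.3 (log2 1.89, adjusted p = 0.000268) and Klf3 fell from 504 ± 26.7 to 180.1 ± 19.0 (log2 -1.48, adjusted p = 3.05e-06), so the CtBP-recruiting relatives Klf3 and Klf8 moved in opposite directions. Klf16, a Sin3-type member, measured 103, 120.3 and 115 in the controls, against 174, 185 and 104 in cKOHet libraries. It was not called (log2 0.41, 95% interval -0.10 to 0.91, adjusted p = 0.262), and cKOHet replicate 4 was the library at the control level. Leaving that library out, with the genes tested held fixed, Klf16 passed the test at a log2 fold change of 0.67 (adjusted p = 0.0418). Klf11, the closest relative of Klf10, was low and uneven, at 35.2, 13.8 and 11.7 and at 52.3, 28.8 and 9.43 (log2 0.43, 95% interval -0.81 to 1.67, adjusted p = 0.673). It was at 1.07 without cKOHet replicate 4 and at -0.10 without cKOHet replicate 1, so its direction is not settled. Klf4, a factor of myeloid and barrier cells, did not pass the filter, at 0.00, 4.27 and 3.23 and at 12.1, 8.34 and 19.6. Klf1, Klf5, Klf14, Klf15 and Klf17 were not analysed here.

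The Sp factors, the sister family with closely similar zinc fingers, had log2 fold changes of -0.55 to 0.71. Of 4 tested, 1 was called higher and 1 lower (50% called, against 21.4% of all genes tested). Sp4 rose from 377 ± 5.85 to 619 ± 43.7 (log2 0.71, adjusted p = 0.000694). Sp2 was called lower, at 458 ± 97.8 and 313 ± 69.1 (log2 -0.55, adjusted p = 0.0471). Leaving out control replicate 2 or control replicate 4 took the adjusted p to 0.0576 and 0.218, and cKOHet replicate 1 or cKOHet replicate 4 to 0.193 and 0.068, which ended the call. It also ended with eBayes without a trend (0.175) and in the high-Xist libraries alone (0.209). Sp1 and Sp3, the widely expressed members, were not called, with log2 fold changes of -0.16 (95% interval -0.43 to 0.10) and 0.037 (-0.24 to 0.32). The direction of Sp3 turned without control replicate 1 (-0.017) or cKOHet replicate 4 (-0.076) and in the high-Xist libraries alone (-0.052).

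**Figure D2:**
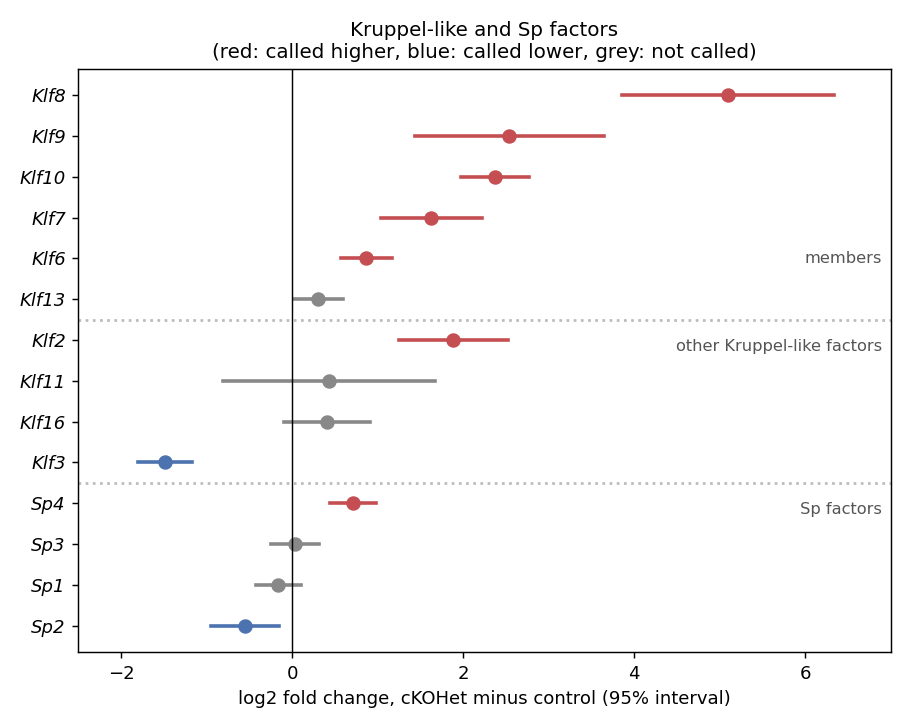
Log2 fold change (cKOHet minus control, on log2(value + 1)) of the tested Kruppel-like and Sp factors, with points for the estimate and lines for the 95% interval. Among the members Klf8 is farthest right at 5.10 and Klf13 is the only one drawn in grey, while Klf3 at -1.48 and Klf2 at 1.89 lie on opposite sides of 0.

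Levels of different genes were compared as normalised read count per kilobase of merged exons. In controls Klf6 (219 ± 7.36 per kb) and Klf13 (142 ± 23.1) led the family, followed by Klf3 (44.8 ± 2.37), Klf16 (42.2 ± 3.26), Klf2 (24.8 ± 8.18) and Klf10 (23.8 ± 5.41). Klf7 (6.16), Klf11 (4.66), Klf9 (3.88), Klf4 (0.82) and Klf8 (0.06) came last. The ranges of the libraries overlapped between Klf3 and Klf16, between Klf2 and Klf10, and between neighbours from Klf7 down to Klf8, so these orders are not resolved. In cKOHet libraries Klf6 (406 ± 84.4) and Klf13 (175 ± 19.35) still led. Klf10 came next at 123 ± 12.4, having moved from rank 6 to rank 3, and overlapped with Klf2 (91.3 ± 22.4). Klf3 moved from rank 3 to rank 8 (16.02 ± 1.69 per kb), below Klf9 (18.6 ± 1.49) and Klf7 (18.5 ± 1.51), which overlapped each other. The place of Klf3 depends on the length, since its merged exons span 11243 bases and its longest transcript 5221. With the longest transcript Klf3 was at 96.5 ± 5.11 per kb in controls, clear of Klf16, and at 34.5 ± 3.63 in cKOHet libraries, where it ranked 6, above Klf9 (19.99 ± 1.6) and Klf7 (19.6 ± 1.6). On that length Klf10 moved from rank 5 (32.6 ± 7.42) to rank 3 (168 ± 17.0), overlapping Klf16 and Klf2 in controls and neither neighbour in cKOHet libraries, and Klf6 and Klf13 led in both groups.

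The summed level per kilobase of the 11 Kruppel-like factors with values was 494, 545 and 499 in controls and 924, 871 and 982 in cKOHet libraries. The groups were thus far apart in the sum, and the 6 members made up 75.9% to 77.9% of it in controls and 76.5% to 86.6% in cKOHet libraries. Klf6 held 41.6% to 44.2% of the sum in controls and 38.0% to 50.6% in cKOHet libraries, the largest share in every library. Klf13 held 24.5% to 30.8% in controls and a smaller share in each cKOHet library, down to 17.1%. Klf10 held 3.83% to 5.93% and 11.3% to 14.7%, and Klf3 7.78% to 9.54% and 1.62% to 1.86% (14.2% to 17.2% and 3.10% to 3.55% with the longest transcript). These sums are a description of messenger RNA and carry no test.

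**Figure D3:**
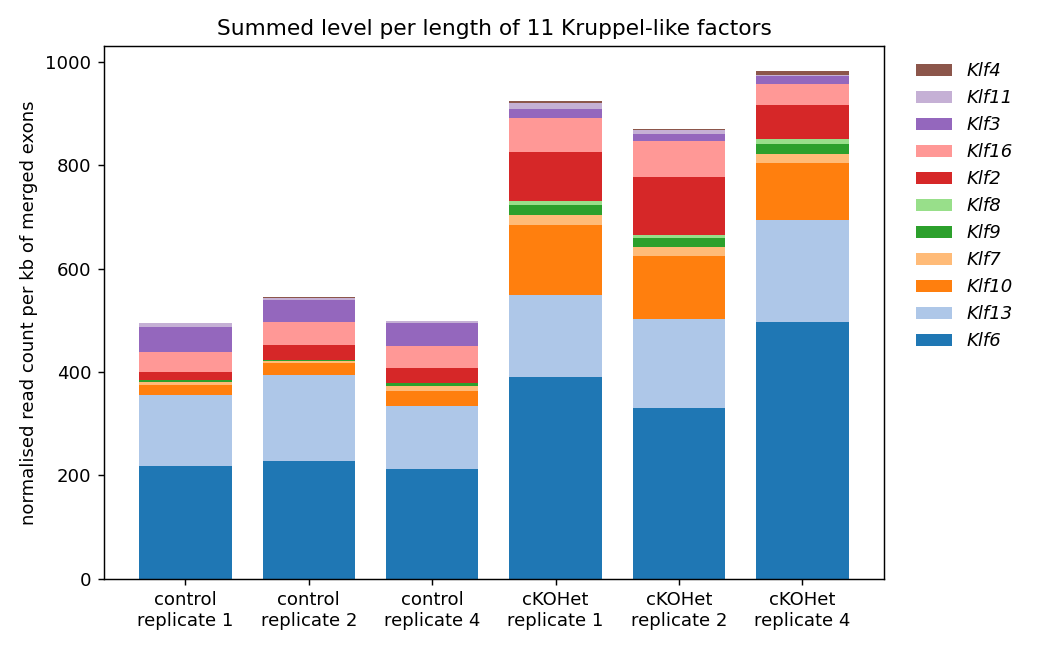
Stacked normalised read counts per kilobase of merged exons (linear axis from 0) for 11 Kruppel-like factors, 1 bar per library. The cKOHet bars reach 871 to 982 and the control bars 494 to 545, with Klf6 the largest segment in all 6.

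For each member the tested genes of similar pattern were found by Pearson correlation of log2(value + 1) over the 6 libraries, among genes with a mean of at least 50. The points share 2 groups, so a high r mostly reflects the group difference and is only a description. Nearest to Klf6 were Gpr89 (r = 0.9985), encoding a Golgi pH regulator, and Eloa (0.9958), an elongation factor subunit, both with their highest value in cKOHet replicate 4 as Klf6 had. Klf7 was nearest to Idh3a (0.9958), a citric acid cycle enzyme gene, and Rp2 (0.9929). Klf8 was nearest to S100a11 (0.9998), at 733 to 876 in controls and 2238 to 2360 in cKOHet libraries, and Fah (0.9988), an enzyme gene of tyrosine breakdown. Klf9 was nearest to Ppp2cb (0.9976), a catalytic subunit of protein phosphatase PP2A, and to Ddx3x (0.9941), an RNA helicase gene, each lowest in control replicate 2. Klf10 was nearest to Rnf144a (0.9971), a ubiquitin ligase gene at 56.1 to 86.8 in controls and 261 to 344 in cKOHet libraries, and Abca7 (0.9962), a lipid transporter gene. Klf13 was nearest to Slc25a15 (0.9944), a mitochondrial ornithine carrier gene, and Nsd2 (0.9918), a histone methyltransferase gene.

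Genes of the corepressors that these factors recruit had shares of calls near the 21.4% of all genes tested. Of 7 tested CtBP complex genes, limma called 2 higher (28.6% called) and 0 lower, also 0 lower at an unadjusted p under 0.05, with a median log2 fold change of 0.086. Zeb2, a zinc finger repressor of terminal effector lymphocytes, rose from 13.1 ± 6.84 to 156 ± 17.2 (log2 3.60, adjusted p = 4.94e-06). Ehmt2, a histone H3 methyltransferase, rose from 1068 ± 71.3 to 1495 ± 165 (log2 0.48, adjusted p = 0.00926). Its call ended with eBayes without a trend (0.0775) and in the high-Xist libraries alone (0.0829). Ctbp1 itself was at 1198 ± 134 and 1031 ± 102 (adjusted p = 0.265). Of 16 Sin3 complex genes, 2 were called higher (12.5% called) and 0 lower, again with 0 lower at an unadjusted p under 0.05 (median 0.049). Brms1, Rbbp4 and Sin3b, named after their values were seen, lay wholly lower in cKOHet libraries without being called (log2 -0.30, -0.23 and -0.18, adjusted p = 0.232, 0.179 and 0.337). Sap30, a Sin3-associated protein gene, rose from a mean of 8.02 ± 5.34 to one of 40.7 ± 5.95, a log2 fold change of 2.44 that became 1.81 with control replicate 4 left out. Arid4a was at 503 ± 49.5 and 766 ± 161 (log2 0.59, adjusted p = 0.0106), and its call ended with control replicate 4 left out (0.0525), with eBayes without a trend (0.0889) and in the high-Xist libraries alone (0.114). Among 4 acetyltransferase coactivators (50% called, against 21.4% of all genes tested), Ep300 was called higher (log2 0.49, adjusted p = 0.0486) and Kat2a lower (-0.51, 0.0246). The Ep300 call ended without any single library except cKOHet replicate 1 (adjusted p 0.0586 to 0.188), with eBayes without a trend (0.198) and in the high-Xist libraries alone (0.267). The Kat2a call ended with control replicate 1 or 4, or replicate 2 or 4 of cKOHet, left out (0.0717 to 0.0992), with eBayes without a trend (0.0778) and in the high-Xist libraries alone (0.175).

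TGF-beta and glucocorticoid genes, which share inducers with Klf10 and with Klf9 and Klf13, were called in both directions, as were all genes tested (11.5% higher, 9.97% lower). Of 15 TGF-beta genes tested, 4 were called higher and 1 lower (33.3% called, median log2 fold change 0.062). The receptor gene Tgfbr1 rose from 229 ± 27.7 to 415 ± 15.9 (log2 0.86, adjusted p = 0.000557), while Smad7, the feedback inhibitor that TGF-beta induces, fell from 199 ± 30.95 to 97.2 ± 9.59 (log2 -1.02, adjusted p = 0.00179). The TGF-beta early genes Klf10 and Smad7 moved in opposite directions, and a part of TGF-beta in either change was not tested. Itgae, which encodes the integrin chain CD103, and the coreceptor gene Tgfbr3 passed the filter only through cKOHet libraries and so had to differ. Itgae was at 3.53, 8.56 and 6.47 and at 161, 1097 and 254 (fitted log2 5.70, or 4.89 without cKOHet replicate 2). Tgfbr3 was at 0.82, 1.13 and 4.29 and at 12.1, 24.4 and 12.5, and its call (adjusted p = 0.0105) ended without cKOHet replicate 2 (0.0674). Ski, named after its values were seen, was called higher (log2 0.50, adjusted p = 0.027), a call that ended with control replicate 1 or 4, or replicate 2 or 4 of cKOHet, left out (0.0833 to 0.116), with eBayes without a trend (0.144) and in the high-Xist libraries alone (0.251).

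Of 10 glucocorticoid-induced genes tested, 4 were called higher and 1 lower (50% called, against 21.4% of all genes tested, median 0.23). Of the 4, Tgfbr3 passed the filter only through cKOHet libraries and so had to differ. Tsc22d3, which encodes the glucocorticoid-induced leucine zipper protein, rose from 99.1 ± 15.1 to 344 ± 44.5 (log2 1.79, adjusted p = 4.42e-06), and the stress gene Ddit4 from 238 ± 38.4 to 465 ± 88.3 (log2 0.95). Fkbp5, a cochaperone of the receptor, was the third (log2 0.54, adjusted p = 0.0114, named after its values were seen, with the call lost with eBayes without a trend at 0.0709 and in the high-Xist libraries alone at 0.0889), and Tgfbr3 the other. The kinase gene Sgk1 fell from 100.01 ± 23.2 to 13.1 ± 6.44 (log2 -2.94, adjusted p = 7.62e-05). The receptor gene Nr3c1 and the clock gene Per1 were not called (log2 0.32 and 0.013). Leaving out Tgfbr3, the called genes Tsc22d3, Ddit4 and Fkbp5 moved with Klf9, and Sgk1 moved against it. A part of glucocorticoids in these changes was not tested.

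Immediate early genes, which often rise together with Klf6 and Klf10 when cells are stimulated or dissociated, were called in both directions. Of 17 tested, 3 were called higher and 2 lower (29.4% called, against 21.4% of all genes), with a median log2 fold change of -0.021. The T cell receptor-induced genes Nr4a1 (42.6 ± 8.99 to 131 ± 17.0, log2 1.62) and Egr1 (299.7 ± 70.0 to 672 ± 158, log2 1.16) rose, and Ier5 fell from 572 ± 105 to 349 ± 19.2 (log2 -0.70, adjusted p = 0.00363). In the high-Xist libraries alone Ier5 was not called (0.0568). Jun and Junb, subunits of the factor AP-1, were not called (log2 -0.094 and -0.44, adjusted p = 0.862 and 0.084). The calls of Dusp2 (log2 0.45, adjusted p = 0.0398) and of Jund (log2 -1.04, adjusted p = 0.0475, named after its values were seen) depended on single libraries. Dusp2 lost its call with control replicate 1 or 2, or replicate 2 or 4 of cKOHet, left out (0.0802 to 0.172), and Jund with control replicate 2 or 4, or replicate 1 or 4 of cKOHet, left out (0.132 to 0.228). Both also lost it with eBayes without a trend (0.14 and 0.24) and in the high-Xist libraries alone (0.0961 and 0.514). Fos, Fosb and Atf3 were not analysed here.

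Of 7 tested genes described elsewhere as targets of Kruppel-like factors, 4 were called higher and 1 lower (median log2 fold change 2.02). That is 71.4% called, against 21.4% of all genes tested. The list was drawn up with results of these data known, so its direction and its share of calls are no independent evidence. Ccl5, the target of Klf13, rose from 2099.9 ± 316 to 9750.5 ± 2902 (log2 2.19), while Klf13 was not called. Lgals3, which encodes galectin-3 and is repressed by Klf3, rose from 74.8 ± 10.3 to 2470 ± 143 (log2 5.03, adjusted p = 1.08e-11). S1pr1, the target of Klf2, rose by 2.03 and the cell cycle inhibitor gene Cdkn1a, a target of Klf6, by 2.02 on the log2 scale (Cdkn1a named after its values were seen). Smad7, a described target of Klf10, fell as given above, and Tgfb1, another described target of Klf10, was at 1172 ± 415 and 1005 ± 163 (adjusted p = 0.574).

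**Figure D4:**
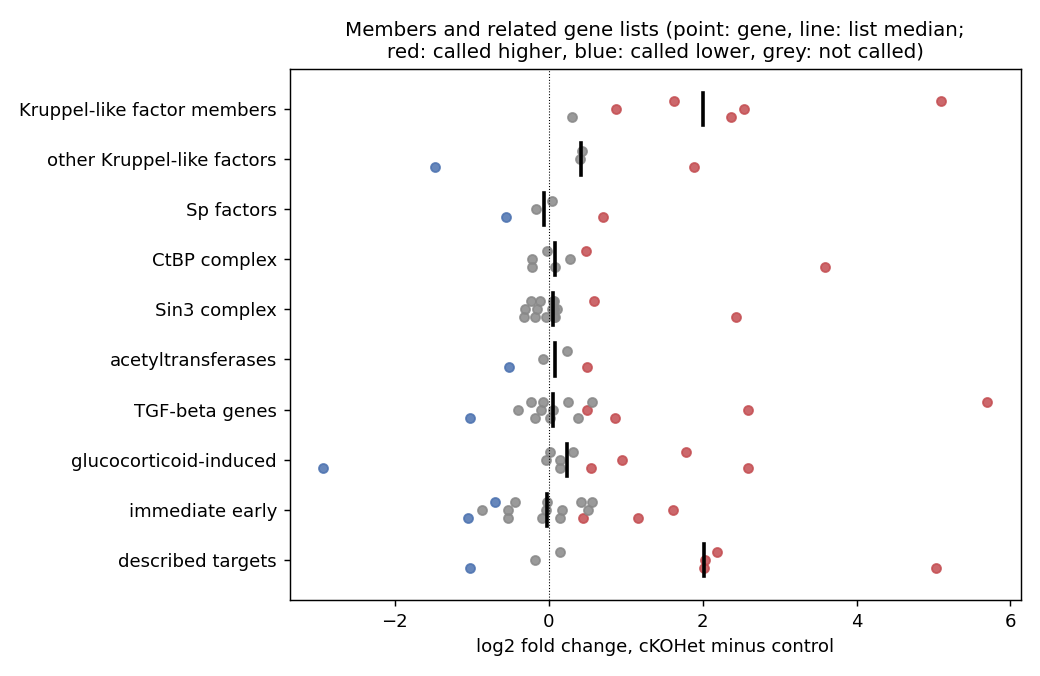
Log2 fold change (cKOHet minus control) of every tested gene in the members and in 9 related lists, with 1 point per gene and a line at each list's median. The corepressor, TGF-beta and immediate early lists have medians of -0.021 to 0.086. Medians are 0.23 for glucocorticoid-induced genes, 0.42 for other Kruppel-like factors and 2.02 for described targets. Of the 6 members 5 are called higher, against 11.5% of all genes tested, and of these Klf8 had to differ to pass the filter.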

How the data were processed

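Total RNA from an RNeasy mini kit went into Nugen Ovation Ultralow libraries, per the labels' protocols. The authors deposited a table of signal per Ensembl gene, named as normalised HTSeq counts. Tools named are Trimmomatic 0.33, STAR, HTSeq 0.6.1 and DESeq2 with mm10, per the submitters' processing notes. How the counts were normalised, and whether strand was used, is not given in the sources used here. At most 3.50% of a library's values lie within 0.01 of a whole number, so read numbers cannot be recovered from them, the depth is unknown, and no gene has a maximum under 5.22. GENCODE M21 named 12864 of 12942 genes. RefSeq supplied the start windows.

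Values were analysed as log2(value + 1) with limma 3.58.1 (R 4.3.3, eBayes with a mean-variance trend), with Benjamini-Hochberg adjustment over the 11226 genes that reached 10 in 3 or more of the 6 libraries. Fold changes are differences between group means on this scale, and not ratios of the mean levels printed beside them. Those of low genes are understated by the added 1. Calls were made at an adjusted p below 0.05. The procedure was tested on simulated data. Levels are mean ± SD, n = 3 libraries per group. Replicates are described as independent but not tied to named mice, and p-values measure only the spread between these libraries.

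The members and all gene lists were chosen with earlier results of these data known. Named were all members, other Kruppel-like and Sp factors, per list the called genes up to the 4 with the smallest adjusted p, the 2 genes nearest each member by Pearson r, and Ets1 and Tbx21. Alternatives covered the pseudocount, filter, scaling, variance model, library weights, a replicate block, the threshold, a term for low Xist and each replicate left out. Added after seeing the data were left-out replicates without filtering again, the libraries with high Xist alone and another gene length.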

Additional observations from a re-analysis of the deposited data

How the results depend on the processing

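Klf6, Klf7, Klf9 and Klf10 kept their call in all 26 alternatives and Klf13 was called in none of 26. Klf8 was called in the 22 that gave it a value, having passed the filter only through the cKOHet libraries. A filter at 50, and filtering again without a cKOHet library, removed Klf8, so these settings gave it no value and 4 members called higher. The highest adjusted p was 0.0233 for Klf6, 0.00974 for Klf7, 0.00105 for Klf8, 0.0402 for Klf9 and 0.000771 for Klf10. The count of all genes called fell from 2407 (1288 higher, 1119 lower) to 1476 (806 and 670) at a threshold of 0.01. Leaving out 1 replicate gave 1779 to 2051 calls with the filter applied again (857 to 1102 higher, 763 to 1026 lower, the 857 without cKOHet replicate 2) and 1883 to 2207 on the same genes (1002 to 1174 higher, 829 to 1033 lower). Among related genes outside the members, 28 were called (21 higher, 7 lower), and 18 (3 lower) in the high-Xist libraries alone. The 21 include Itgae and Tgfbr3, which passed the filter only through the cKOHet libraries. The 7 lower became 4 with eBayes without a trend and 4 at a threshold of 0.01. With 1 replicate left out they were 4 to 8, with 4 without control replicate 4 or cKOHet replicate 4. With 1 replicate left out Klf11 ranged from -0.10 (without cKOHet replicate 1) to 1.07. Sp3 ranged from -0.076 (without cKOHet replicate 4) to 0.126, with -0.017 without control replicate 1, and was at -0.052 in the high-Xist libraries alone. Klf6 made up 42.8% of the summed level per length in controls, and 37.5% with the length of the longest transcript. For these, the cause was not tested. With a replicate block 2412 genes were called (1274 higher, 1138 lower) and 5 members. Whether the replicate numbers pair the samples across groups is not settled here, and the main test used no pairing. The deviations of same-numbered libraries correlated weakly, at 0.092, 0.088 and 0.055. Each library still correlated best with its own number, and pairs of unlike number were at -0.12 to 0.029.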
